A study of Mus musculus with 17 samples.

Results

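The mitosis and spindle genes are a list of 44 genes whose products enter, run or end cell division, and their RNA was followed here in mouse liver with and without fibrosis. The members were found by gene symbol in the platform annotation, with 1 probe used per gene, the one with the highest mean over the 17 arrays. Of the 44 genes, 39 had a probe and 31 passed the filter on dim probes and were tested, among 12853 features tested in all. No probe carried the symbols Aurkb, Mki67, Ccnb1, Cenpf or Racgap1, so the RNA of these 5 genes was not analysed here. The probes of Bub1, Ccnb2, Cenpe, Ect2, Hmmr, Kif20a, Nuf2 and Smc2 did not lie above background on 3 or more arrays, and their deposited intensities stayed between -10.5 and 22.3 on all 17 arrays. Nothing can be said of the RNA of these 8 genes from these arrays, and the counts of RNA levels below are of the 31 that passed. A gene could pass the filter through a single group, so the counts describe the genes and are not support for a difference.

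RNA of whole liver was hybridised to Illumina bead arrays. The 4 healthy arrays came from untreated mice that the labels list with tk as No. The 6 CCl4 arrays came from mice with liver fibrosis caused by CCl4 (carbon tetrachloride, a chemical toxic to hepatocytes), with tk as Neg. The 4 FSP1 ablated arrays (tk FSP1 +) and the 3 aSMA ablated arrays (tk aSMA +) were of CCl4-treated, fibrotic liver too, so that both ablated groups and the CCl4 group share the injury. FSP1 is the product of S100a4 and aSMA the product of Acta2, both used as markers of fibroblast-like cells. The labels used here give no strain, age, sex, time of sampling or ablating agent and do not state that arrays are of separate animals, so the p-values measure the spread between arrays, which may be technical. In RNA of a whole tissue, fewer cells of a type and less RNA per cell cannot be told apart.

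In textbook terms, a cell enters mitosis when cyclin-dependent kinase 1 is switched on by its cyclins, after the transcription factor FOXM1 has raised the RNAs of many mitotic proteins. Aurora and Polo-like kinases then build the spindle, kinetochores tie chromosomes to it, and the spindle checkpoint holds the anaphase-promoting complex back until every chromosome is attached. Most hepatocytes of adult liver rest outside the cell cycle, and they and other liver cells can divide again after injury. Many of these genes share a promoter element called the cell cycle genes homology region (CHR), which the DREAM and MuvB complexes bind, often beside CCAAT boxes bound by NF-Y.

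Of the 25697 probes, 13784 to 15869 gave signal above background, depending on the array, and precision is limited by how few arrays there are. Before normalization the healthy arrays were on a lower scale (upper quartile of intensity 63.7 to 65.7) than all others (165.4 to 178.8). Signal of Y-linked genes marked the healthy arrays and CCl4 arrays 5 and 6, signal of Xist marked CCl4 arrays 1 to 3 and both ablated groups, and CCl4 array 4 had neither. The 8 hepatocyte markers summed to normalized intensities of 67700 to 82690 on all arrays, a sum carried by bright probes such as those of Apoa2 and Ttr. In CCl4 against healthy liver, 3 of the 8 were lower at an adjusted p under 0.05 and 0 were higher. Over all features 17.5% were lower and 16.5% higher at that threshold. Among the 8, Tat averaged 5.73 to 6.25 by group, near background. Alb averaged 6.32 in healthy, 7.6 in CCl4, 6.36 in FSP1 ablated and 8.98 in aSMA ablated liver. Its probe was thus dim in healthy and FSP1 ablated liver. Why was not tested, and these levels are not taken as a measure of albumin RNA. Fetub was higher in FSP1 ablated than in CCl4 liver by 1.47 (adjusted p = 7.93e-05). It alone of the 8 passed the threshold there, beside 5.55% of all features higher and 7.38% lower. The markers named here were picked after their values were seen. S100a4 read 5.85 to 6.20, close to background throughout, and gives no check of the FSP1 ablation. Acta2 read 9.15 to 11.34 on the CCl4 arrays and 7.67, 9.31 and 7.38 on the aSMA ablated ones, a difference of -2.27 (SE 0.50, adjusted p = 0.108) that missed the threshold. Levels below are normalized log2 intensities, differences are between group means on that log2 scale with their standard errors (SE), and a gene is called where its adjusted p is under 0.05. Levels of different genes come from different probes and are not set against each other.

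CCl4 liver was set against healthy liver to describe cell division genes in fibrotic injury. Of the 31 genes tested, 29 were higher in CCl4 liver and none was lower, with a median difference of 2.30, beside -0.022 over all features. Over all features, 16.5% were called higher and 17.5% lower in this comparison. Every CCl4 array lay above every healthy array for 28 of the 31, as it did for 11.4% of all features. The 2 genes that were not called were Cks2 and Ttk. The probes used for 11 of the 31 genes lay above background on no healthy array (10 genes when all probes of a gene are counted), while none of the 31 was below background on all CCl4 arrays.

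**Figure D1:**
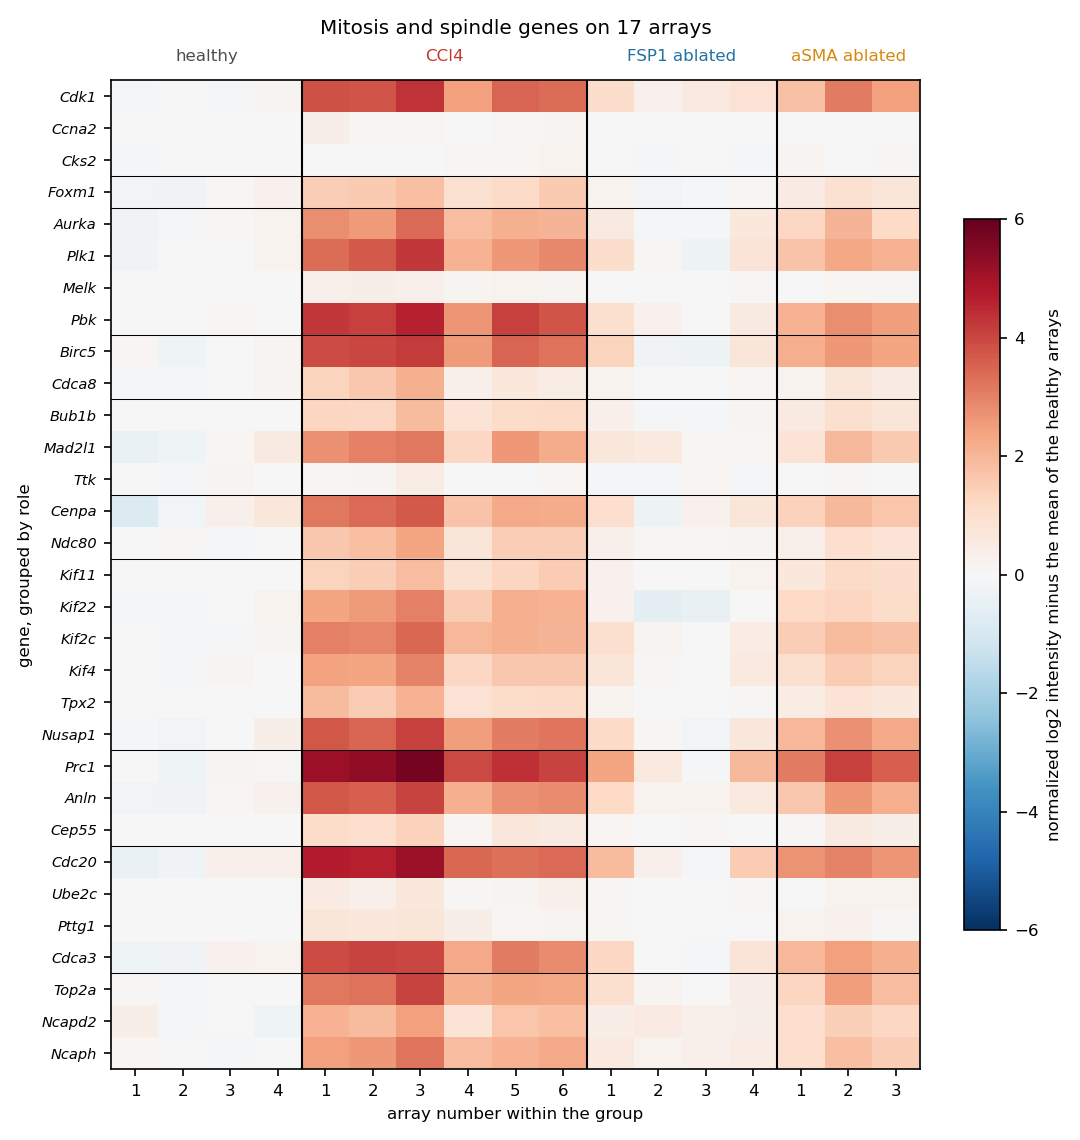
Normalized log2 intensity of the 31 genes tested (rows, by role) on the 17 arrays (columns, by group), each row shown as the difference from its own mean over the healthy arrays. The CCl4 columns are the highest for nearly all rows, the aSMA ablated columns lie between, and the FSP1 ablated columns are nearer to the healthy ones, with arrays 1 and 4 of that group above them for Prc1 and Cdc20.

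Prc1, which bundles the antiparallel microtubules of the central spindle, had the largest difference of the list. It read 6.13, 5.89, 6.33 and 6.22 on the 4 healthy arrays and 10.12 to 11.87 with a median of 10.89 on the 6 CCl4 arrays. The lowest CCl4 array therefore lay far above the highest healthy one, and the difference was 4.77 (SE 0.45, adjusted p = 2.41e-06), or 27.2-fold. Cdc20, the activator of the anaphase-promoting complex at the end of metaphase, read 5.88, 6.05, 6.55 and 6.59 on the healthy arrays and 9.59 to 11.43 with a median of 10.32 on the CCl4 arrays. Its groups did not overlap either, and it rose by 4.12 (SE 0.42, adjusted p = 5.23e-06).

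Cdk1 is the kinase whose activity starts mitosis. Its healthy arrays read 5.77, 5.84, 5.79 and 6.0, and its CCl4 arrays 8.32 to 10.19 with a median of 9.49. All CCl4 arrays were above all healthy arrays, with a difference of 3.54 (SE 0.30, adjusted p = 1.05e-06). The Cdk1 probe used was above background on only 1 of the 4 healthy arrays, and the difference ran from 3.10 to 5.82 over the alternatives listed below. Cdca3, an F-box-like protein that takes part in the destruction of the mitosis inhibitor WEE1, read 6.72, 6.80, 7.27 and 7.22 in healthy liver and 9.29 to 11.05 with a median of 10.50 in CCl4 liver. It was 10.3-fold higher, with a difference of 3.36 (SE 0.34, adjusted p = 4.70e-06) and no overlap between the arrays.

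The promoters of these 4 genes are shown because, among tested genes with a CHR match in a window, they had the largest rises in CCl4 liver. Pbk (3.91) and Birc5 (3.57) rose more than Cdk1 (3.54) and Cdca3 (3.36), but no CHR match was found for them. Some listed genes had no window to search, so this does not show that the promoters of Pbk and Birc5 lack a CHR. The choice used both the motif and the rise, so it does not show a link between them. Prc1 has a pair of windows, of which the first is given. The windows run from 250 bases before to 50 after the gene's start in RefSeq's annotation of GRCm38.p6, and are written 5′ to 3′ on the strand of the gene. Capitals mark TTTGAA, the letters searched for the CHR, and CCAAT, or their reverse complements.
Prc1 (chr7:80294201-80294500, plus strand): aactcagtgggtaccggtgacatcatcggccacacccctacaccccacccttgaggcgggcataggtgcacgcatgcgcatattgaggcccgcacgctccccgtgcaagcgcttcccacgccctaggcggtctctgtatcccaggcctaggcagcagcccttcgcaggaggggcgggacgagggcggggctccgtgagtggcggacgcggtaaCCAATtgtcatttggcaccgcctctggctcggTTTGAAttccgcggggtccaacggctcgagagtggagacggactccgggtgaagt
Cdc20 (chr4:118437294-118437593, minus strand): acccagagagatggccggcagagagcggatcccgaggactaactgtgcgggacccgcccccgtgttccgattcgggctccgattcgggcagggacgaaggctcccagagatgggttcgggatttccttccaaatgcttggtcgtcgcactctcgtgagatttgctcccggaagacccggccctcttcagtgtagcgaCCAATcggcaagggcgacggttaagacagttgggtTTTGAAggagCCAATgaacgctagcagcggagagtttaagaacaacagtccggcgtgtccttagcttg
Cdk1 (chr10:69352863-69353162, minus strand): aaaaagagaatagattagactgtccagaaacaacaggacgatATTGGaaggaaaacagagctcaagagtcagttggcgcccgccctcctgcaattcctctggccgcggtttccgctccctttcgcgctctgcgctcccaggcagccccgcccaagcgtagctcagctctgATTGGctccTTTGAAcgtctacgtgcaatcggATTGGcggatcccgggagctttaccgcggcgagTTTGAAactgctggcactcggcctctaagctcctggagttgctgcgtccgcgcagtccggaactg
Cdca3 (chr6:124829926-124830225, plus strand): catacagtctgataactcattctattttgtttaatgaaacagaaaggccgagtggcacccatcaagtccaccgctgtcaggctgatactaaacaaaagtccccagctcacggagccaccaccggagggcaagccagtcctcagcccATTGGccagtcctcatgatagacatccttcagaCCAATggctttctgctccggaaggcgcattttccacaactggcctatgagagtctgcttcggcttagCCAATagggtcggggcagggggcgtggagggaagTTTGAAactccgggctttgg

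In these windows TTTGAA begins 5 bases before the start of Prc1, 18 before that of Cdc20, 71 and 15 before that of Cdk1, and 31 bases after that of Cdca3. A CCAAT box, on either strand, stands upstream of a TTTGAA in all 4 windows. For Cdc20 a second CCAAT follows the TTTGAA after 4 bases.

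RefSeq windows were at hand for 38 of the 44 listed genes, those without a tested probe included, and came to 41 in all, since some genes have more than 1 start and their windows can overlap. TTTGAA was found on either strand in 30 of the 41 windows (73.2%), which belong to 27 of the 38 genes, and in 17.9% of all 32851 windows of the same length. Of the windows of the tested genes alone, 22 of 29 (75.9%) held it. Within the last 100 bases of the window it stood in 65.9% of the members' windows and in 4.94% of all windows. CCAAT, on either strand, stood in 70.7% against 37.4%, and both motifs together in 61.0% against 6.95%. An E2F-like motif, searched on both strands as TTCCCGC or TTGGCGC or TTCGCGC or TTGCCGC, stood in 19.5% against 9.57%. Matches of different motifs may overlap. These letters are a description of the windows and no measurement of binding.

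**Figure D2:**
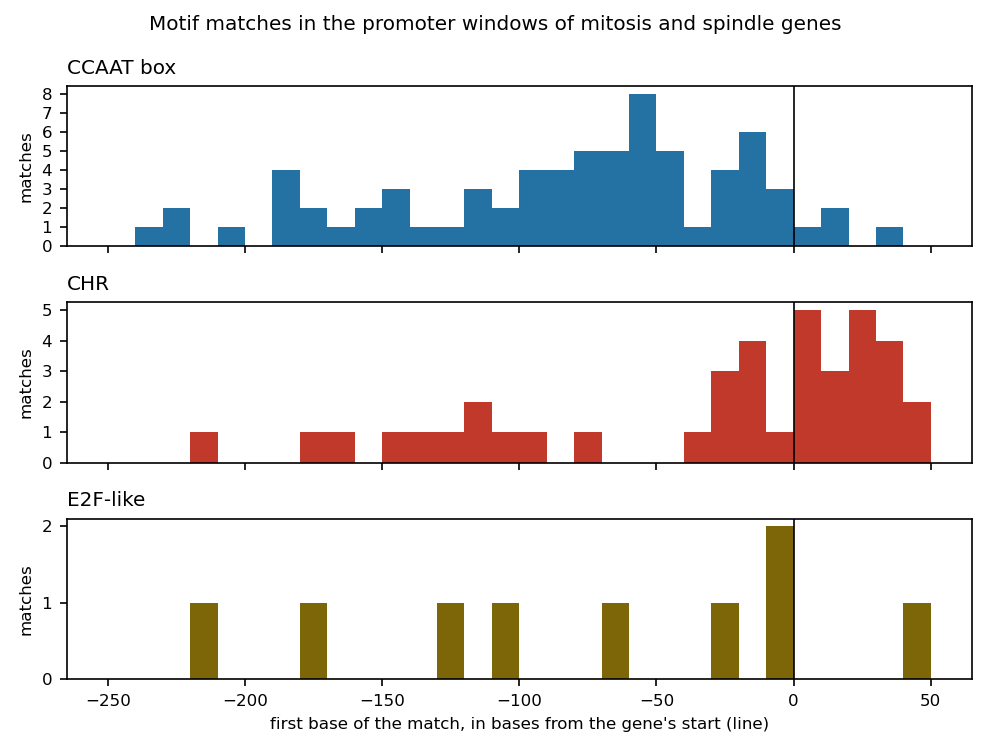
Positions of TTTGAA (CHR), CCAAT and E2F-like matches in the 41 promoter windows, as counts of matches by distance in bases from the gene's start, with the last base before the start at -1 and the first base of the gene at +1. Of 39 TTTGAA matches, 28 lie within 50 bases of the start, and they belong to 24 genes.

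Among the partners of Cdk1, the signal was low. Ccna2, a cyclin of S phase and early mitosis, read 5.70, 5.75, 5.70 and 5.73 on the healthy arrays, none of them above background, and 5.72 to 6.08 with a median of 5.86 on the CCl4 arrays. The groups overlapped, the means were 5.72 and 5.88, and the adjusted p was 0.0476. No fold is given for Ccna2, since the CCl4 mean did not exceed the bound for healthy liver. Cks2, a small subunit of the CDK complex that was above background on no healthy array, differed by 0.048 (adjusted p = 0.548), with a 95% interval from -0.074 to 0.17. Foxm1, the transcription factor of the mitotic program, rose by 1.42 (SE 0.15, adjusted p = 8.10e-06), from 6.42 ± 0.21 (SD, n = 4) to 7.84 ± 0.32 (SD, n = 6).

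All 4 mitotic kinases were called higher. Plk1, the Polo-like kinase of centrosome maturation and mitotic entry, rose by 3.13 (SE 0.35, adjusted p = 1.14e-05), and Aurka, which works at the spindle poles, by 2.46 (SE 0.27, adjusted p = 1.10e-05). Pbk, a mitotic kinase of the MAPKK-like family, was above background on all 6 CCl4 arrays and on none of the 4 healthy ones. Its means were 9.66 and 5.75, and it was at least 13.8-fold (adjusted p = 2.86e-07) higher. Melk, a kinase of dividing and progenitor cells, was also not above background in healthy liver and was at least 1.09-fold (adjusted p = 0.00138) higher. An "at least" fold sets the bright group's mean against a bound for the dim group, which on each array is the gene's own level or, where that is lower, the dimmest level still counted as above background.

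Of the chromosomal passenger genes, Birc5 (survivin) read 6.52, 6.16, 6.41 and 6.61 on the healthy arrays and 8.98 to 10.63 with a median of 10.14 on the CCl4 arrays, a difference of 3.57 (SE 0.33, adjusted p = 1.95e-06). Cdca8 (borealin) rose by 1.08 (SE 0.28, adjusted p = 0.00818). Both groups stood apart without overlap for both genes. In the spindle checkpoint, Mad2l1, which binds CDC20 while chromosomes are unattached, rose by 2.50 (SE 0.32, adjusted p = 4.44e-05), and Bub1b (BubR1), of the same inhibitory complex, by 1.25 (SE 0.15, adjusted p = 2.57e-05). The checkpoint kinase Ttk differed by 0.14 with a 95% interval from -0.042 to 0.32, and its arrays overlapped.

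At the centromere, Cenpa, the histone H3 variant that marks it, read 7.58, 8.22, 8.72 and 9.09 in healthy liver and 10.10 to 12.08 with a median of 11.12 in CCl4 liver. It was above background on all arrays of both groups and rose by 2.74 (SE 0.39, adjusted p = 9.33e-05). For Ndc80, the kinetochore's microtubule-binding subunit, the probe used was above background on no healthy array and its level was at least 2.76-fold (adjusted p = 9.33e-05) higher in CCl4 liver. The other Ndc80 probe was above background on 1 healthy array. The 6 spindle genes were all called higher. Kif22, a chromosome-arm kinesin, rose by 2.30 (SE 0.23, adjusted p = 3.62e-06), and Nusap1, which binds spindle microtubules, by 3.36 (SE 0.29, adjusted p = 1.29e-06). The rise was 2.59 for Kif2c, a microtubule-depolymerizing kinesin, and 2.04 for Kif4, a kinesin of the chromosome arms and central spindle. Kif11, the motor that pushes spindle poles apart, was at least 2.38-fold (adjusted p = 5.99e-06) higher, and Tpx2, the activator of Aurora A, at least 2.39-fold (adjusted p = 6.37e-05).

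Anln (anillin), a scaffold of the contractile ring, rose by 3.18 (SE 0.33, adjusted p = 6.18e-06), and Cep55, which acts at abscission, was at least 1.56-fold (adjusted p = 0.00289) higher. Ube2c, the ubiquitin-conjugating enzyme of the anaphase-promoting complex, was at least 1.12-fold (adjusted p = 0.01) higher and Pttg1 (securin), the inhibitor of separase, at least 1.23-fold (adjusted p = 0.00589). These 2 genes were dim on all arrays. Among the genes of chromosome structure, Top2a, which untangles sister chromatids, was at least 6.75-fold (adjusted p = 1.48e-05) higher, and the condensin subunits Ncaph and Ncapd2 rose by 2.42 and 1.80.

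FSP1 ablated, CCl4-treated liver was compared with CCl4 liver to show what the first ablation changed under the same injury. Of the 31 genes, 28 were lower after FSP1 ablation and none was higher, with a median difference of -2.02 beside 0.012 over all features. In this comparison 7.38% of all features were called lower and 5.55% higher. All FSP1 ablated arrays lay below all CCl4 arrays for 27 of the 31, and for 5.96% of all features. Ccna2, Cks2 and Ttk were not called.

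**Figure D3:**
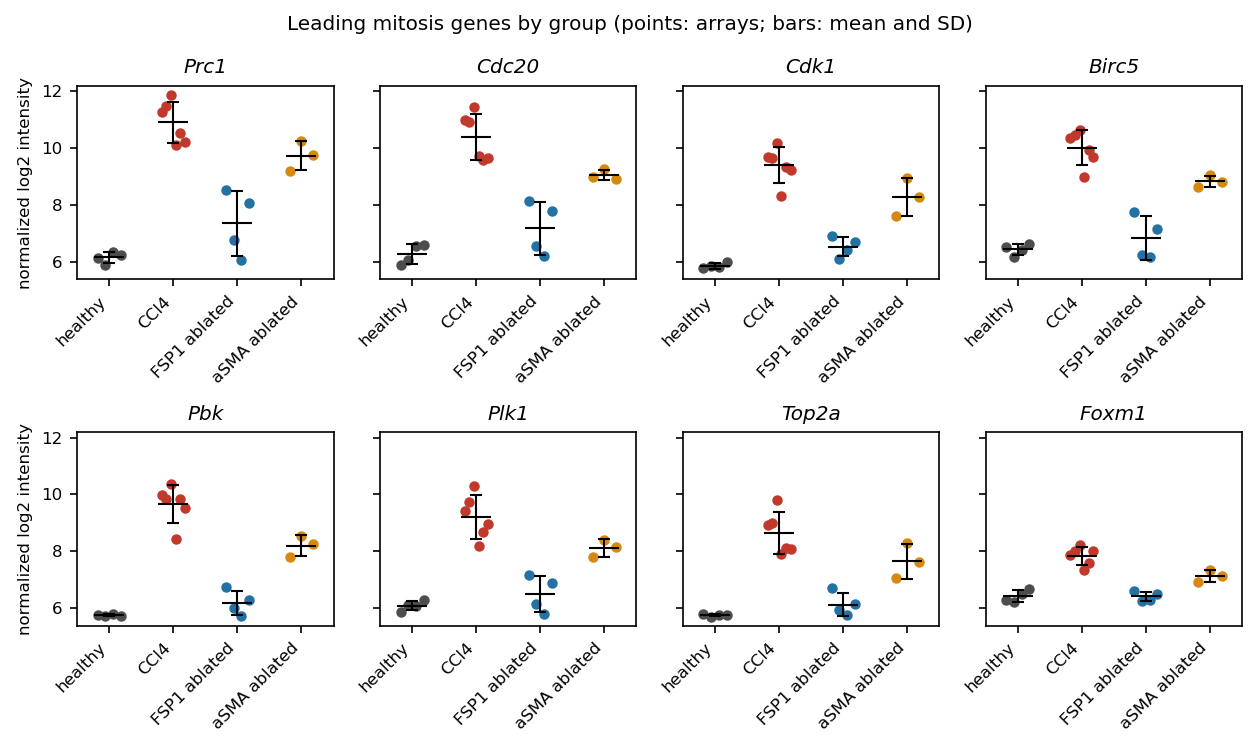
Normalized log2 intensity on each array (points) for 8 genes of the list, with the mean and SD (bars) of each group: healthy (n = 4), CCl4 (n = 6), FSP1 ablated (n = 4) and aSMA ablated (n = 3). The FSP1 ablated points of Prc1 reach from 6.05 to 8.53, all below the lowest CCl4 point at 10.12.

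Prc1 read 8.53, 6.75, 6.05 and 8.08 on the 4 FSP1 ablated arrays, in array order. Array 3 lay within the healthy range and the others above it, arrays 1 and 4 the highest, though still below every CCl4 array. Prc1 fell by 3.56 (SE 0.45, adjusted p = 0.000101) against CCl4 liver. Cdc20 read 8.15, 6.56, 6.18 and 7.78, with the same pair of arrays high, and differed by -3.22 (SE 0.42, adjusted p = 0.000141).

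Pbk read 6.73, 6.02, 5.73 and 6.27 after FSP1 ablation, and its difference was -3.47 (SE 0.29, adjusted p = 3.13e-06), or 11.1-fold lower. Birc5 differed by -3.18 (SE 0.33, adjusted p = 1.95e-05), on arrays reading 7.76, 6.24, 6.14 and 7.14. For Cdk1 the 4 arrays read 6.88, 6.11, 6.42 and 6.70, a narrower range, with a difference of -2.87 (SE 0.30, adjusted p = 2.18e-05). Foxm1 read 6.61, 6.26, 6.29 and 6.49, within the healthy range, and fell by 1.43 (SE 0.15, adjusted p = 2.51e-05).

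The 4 kinases, both chromosomal passenger genes tested, the 6 spindle genes and the 3 cytokinesis genes were all called lower. The differences were -2.73 for Plk1, -2.24 for Aurka, -2.92 for Nusap1, -2.50 for Kif22 and -2.63 for Anln. Among genes of chromosome structure and the kinetochore they were -2.51 for Top2a, -2.02 for Ncaph, -2.32 for Cenpa and -1.43 for Ndc80. The probes used for Melk, Pttg1 and Ube2c were above background on no FSP1 ablated array, though another Melk probe was on 1. By the probes used, these genes were at least 1.12-fold, 1.26-fold and 1.15-fold lower than in CCl4 liver, with adjusted p of 0.00434, 0.0152 and 0.04. The arrays of Ube2c overlapped.

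aSMA ablated, CCl4-treated liver was compared with the same 6 CCl4 arrays. None of the 31 genes was called in either direction with limma, and 27 had an unadjusted p under 0.05, as did 11.2% of all features. Of the 12853 features 1 was called lower (0.00778%) and 0 higher (0%), the one being Bex3 at -0.73 (SE 0.10, adjusted p = 0.0389), named after its value was seen. The sign was negative for 30 of the 31, the exception being Cks2 at 0.025, and the median difference was -0.88, beside -0.0031 over all features. The arrays did not overlap for 7 of the 31, and the aSMA ablated arrays lay below the CCl4 arrays for 2.53% of all features.

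Prc1 read 9.20, 10.25 and 9.75 on the 3 aSMA ablated arrays, and array 2 lay inside the CCl4 range. Its difference was -1.18 (SE 0.49, adjusted p = 0.375), with a 95% interval from -2.22 to -0.14. Cdc20 read 8.96, 9.25 and 8.92, all below the lowest CCl4 array at 9.59, with a difference of -1.34 (SE 0.46, adjusted p = 0.275). Pbk read 7.81, 8.53 and 8.25 and had the largest difference of the list here, -1.46 (SE 0.32, adjusted p = 0.108). Foxm1 read 6.93, 7.34 and 7.13, again without overlap, and differed by -0.71 (SE 0.17, adjusted p = 0.11).

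This count of 0 changed with the arrays used and with terms of the fit. It was 28 lower with array weights, which reweigh all 17 arrays, where 7.28% of all features were called lower. Against CCl4 arrays 1 to 3 alone it was 28 lower, with 5.43% of all features, and against arrays 4 to 6 alone 0, with 0.00778%. Without CCl4 array 4 it was 10, with 1.06% of all features, and with Y-linked signal as a block 4, with 0.778%. Calls over all features thus moved with those of the members. The corresponding counts for FSP1 ablation were 29 against CCl4 arrays 1 to 3 (7.32% of all features) and 26 against arrays 4 to 6 (9.73%).

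**Figure D4:**
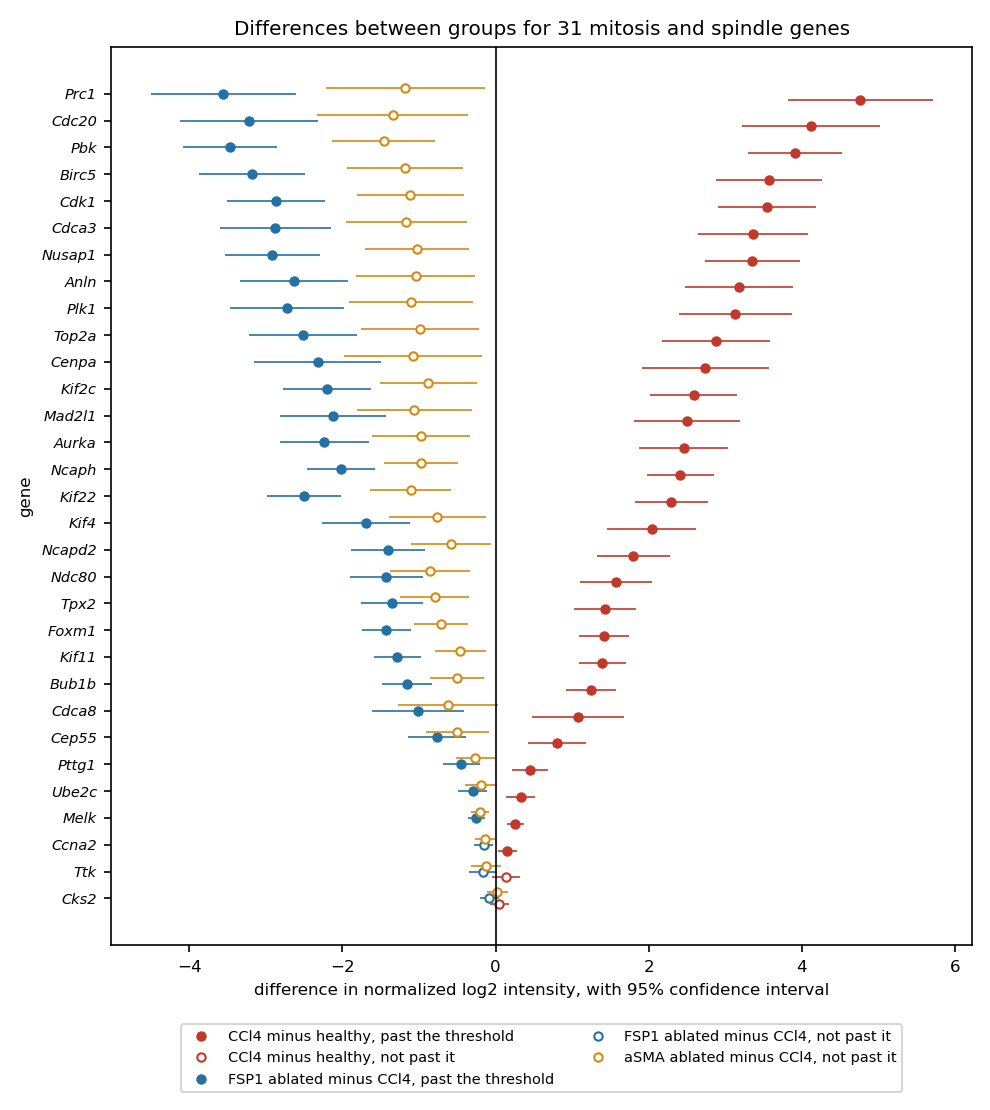
Difference of group means on the log2 scale, with 95% intervals from the limma fit, for the 31 genes tested: CCl4 minus healthy, FSP1 ablated minus CCl4 and aSMA ablated minus CCl4, with filled points past the threshold. The FSP1 ablated differences from CCl4 liver (median -2.02) lie farther from 0 than the aSMA ablated ones (median -0.88). Both ablations are set against the same 6 CCl4 arrays.

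The ablated groups were also compared with each other, which leaves the shared CCl4 arrays out of the contrast. FSP1 ablated liver was lower for 16 of the 31 genes and higher for none, with a median difference of -1.04 beside 0.0096 over all features, of which 2.71% were called lower and 1.94% higher. The arrays did not overlap for 24 of the 31, and FSP1 ablated arrays lay below aSMA ablated arrays for 12.3% of all features. The differences were -2.38 (SE 0.53, adjusted p = 0.0211) for Prc1, -2.01 (SE 0.34, adjusted p = 0.00609) for Pbk, -2.0 (SE 0.39, adjusted p = 0.0106) for Birc5 and -1.89 (SE 0.34, adjusted p = 0.00795) for Nusap1. Cdk1 differed by -1.76 (SE 0.35, adjusted p = 0.0135), with FSP1 ablated arrays up to 6.88 and aSMA ablated arrays from 7.61. Cenpa (-1.25, adjusted p = 0.133) and Mad2l1 (-1.06, adjusted p = 0.124) were not called. The count rested on single arrays, being 1 without aSMA ablated array 2 (0.545% of all features called lower), 5 without aSMA ablated array 3 (1.27%), 5 without FSP1 ablated array 2 (1.12%) and 9 without FSP1 ablated array 3 (3.02%). With no filter on dim probes it was 9 of 39 members tested, with 1.28% of all 18312 features called lower.

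Against healthy liver, FSP1 ablated liver had 0 of the 31 genes called by limma, and 1, Prc1, had an unadjusted p under 0.05, as did 32.0% of all features. Of all features 9.01% were called higher and 8.87% lower in this comparison. The median difference of the 31 genes was 0.35, beside -0.005 over all features. The FSP1 ablated arrays lay above the healthy arrays for 2 of the 31, and for 10.5% of all features. Prc1 differed by 1.21 (SE 0.49, adjusted p = 0.1) with a 95% interval from 0.17 to 2.25, and Cdc20 by 0.90 (SE 0.46, adjusted p = 0.196) with an interval from -0.086 to 1.88. For Cdk1 all FSP1 ablated arrays, 6.88, 6.11, 6.42 and 6.70, lay above the healthy arrays, which reached 6.0, and the difference was 0.68 (SE 0.33, adjusted p = 0.169). Foxm1 differed by -0.0084 with an interval from -0.36 to 0.35. These intervals do not show that the groups are alike. Every healthy array had Y-linked signal and every FSP1 ablated array had Xist signal instead. Sex signal, CCl4 and ablation therefore cannot be told apart in this comparison. With Y-linked signal as a block, a fit that takes the difference through the CCl4 arrays, 0 genes were called and the members' median was -0.092. In that fit 0.918% of all features were called higher and 0.708% lower. The healthy arrays had their own deposited scale, and without normalization between arrays 9 of the 31 genes and 64.9% of all features were called higher here, while the median of all features rose by 0.55, more than the members' median of 0.46.

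aSMA ablated liver stayed apart from healthy liver. There 21 of the 31 genes were higher and none lower, with a median difference of 1.28 beside -0.014 over all features, of which 11.2% were called higher and 11.4% lower. The arrays did not overlap for 26 of the 31, and aSMA ablated arrays lay above healthy arrays for 16.7% of all features. Prc1 was 12.0-fold higher (3.59 on the log2 scale, SE 0.53, adjusted p = 0.000317), Cdc20 6.85-fold and Cdk1 5.40-fold. Cdk1 was above background on only 1 healthy array, and its log2 difference here ran from 2.10 to 4.57 over the alternatives. Pbk, not above background in healthy liver, was at least 5.0-fold (adjusted p = 0.000203) higher and Top2a at least 3.41-fold (adjusted p = 0.00315). Tpx2 and Ndc80 had no overlap between the arrays but missed the threshold, with adjusted p of 0.0566 and 0.063. When the fit carried a block for Y-linked signal, 6 genes were called in place of 21, with 5.77% of all features called higher. Healthy and ablated arrays share no class of that block, so this fit takes the difference through the CCl4 arrays. In the direct comparison, sex signal, CCl4 and ablation cannot be told apart.

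Ordered by group means, 26 of the 31 genes had the order CCl4, aSMA ablated, FSP1 ablated, healthy from high to low, and for 4 more the last pair changed places. Cks2 was the remaining gene, with its highest mean in aSMA ablated liver. Neighbours at the top of the order, CCl4 and aSMA ablated, did not differ past the threshold for any gene, and neither did those at the bottom, FSP1 ablated and healthy. The middle pair differed for the 16 genes given above.

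Within the CCl4 and both ablated groups, most of the genes were highest on the same array, which is a description of these arrays only. CCl4 arrays 1 to 3 all lay above arrays 4 to 6 for 27 of the 31 genes, an arrangement found in 14.6% of all features, and the mean of arrays 1 to 3 was higher than that of arrays 4 to 6 by a median of 0.81. Array 3 was the highest for 27 genes and array 4 the lowest for 27. Arrays 1 to 3 also have the highest means of these genes, so the count describes the split and is no support for it. Arrays 1 to 3 are those with Xist signal and array 4 is the one with neither sex signal. Acta2 was lowest on array 4 as well, at 9.15, and read 10.38, 11.34 and 11.31 on arrays 1 to 3 and 10.13 and 10.05 on arrays 5 and 6. The part of sex or of the share of myofibroblasts in these levels was not tested.

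Among the FSP1 ablated arrays, numbers 1 and 4 both lay above 2 and 3 for 25 of the 31 genes, against 19.3% of all features. Their mean over the 31 genes was 6.73 and 6.50, against 6.14 and 6.08 on arrays 2 and 3. This pair is the one with the highest means of these same genes, while the share of all features was not picked so. The count is therefore a description and no support for the split. In the aSMA ablated group array 2 was the highest for 29 genes, with a mean of 7.66 against 7.13 and 7.39. That array also had the highest Acta2 of its group, at 9.31.

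Over the 17 arrays, Pearson's r of a gene with the mean of the other members ran from 0.22 for Cks2 to 0.997, with a median of 0.977, and was over 0.9 for 25 of the 31. The lowest after Cks2 were Ttk at 0.62 and Ccna2 at 0.73. These values include the differences between groups, since all points share the same 4 groups, and are a description. The 10 genes outside the list whose levels were most like the members' mean over the 17 arrays were Arhgef39, Cdca2, Spag5, Kif18b, Clspn, Pif1, Knstrn, Kif15, Rrm1 and Incenp, with r from 0.982 to 0.996. Arhgef39 averaged 5.74 in healthy liver, 8.04 in CCl4 liver, 6.02 after FSP1 ablation and 7.13 after aSMA ablation.

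Genes with several probes showed which signals were shared by all their probes. For Birc5 the lowest r between probes past the filter was 0.99, for Kif4 0.947 and for Cdc20, with 4 probes, 0.794. It was lower for Ncapd2, at 0.736, and Melk, at 0.694. For Cdk1, Anln and Ndc80 the other probes stayed near background while the probe used moved. The probe used for Ndc80 read deposited intensities of 53.1 to 287.2 on the CCl4 arrays, and the other probe 0.6 to 13.9. For Cdk1 the probe used read 314.7 to 1231.7 there and the other probes 2.3 to 20.3. For Nusap1 the probes past the filter had an r of 0.807. A further Nusap1 probe that did not pass read 5.5 to 12.9 on the CCl4 arrays, where the probe used read 387.2 to 1234.9. The results of Cdk1, Anln and Ndc80 rest on 1 probe each, and why the probes differ was not tested. Of the 39 listed genes with a probe, 27 had only 1, so they have no second probe to compare.

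**Figure D5:**
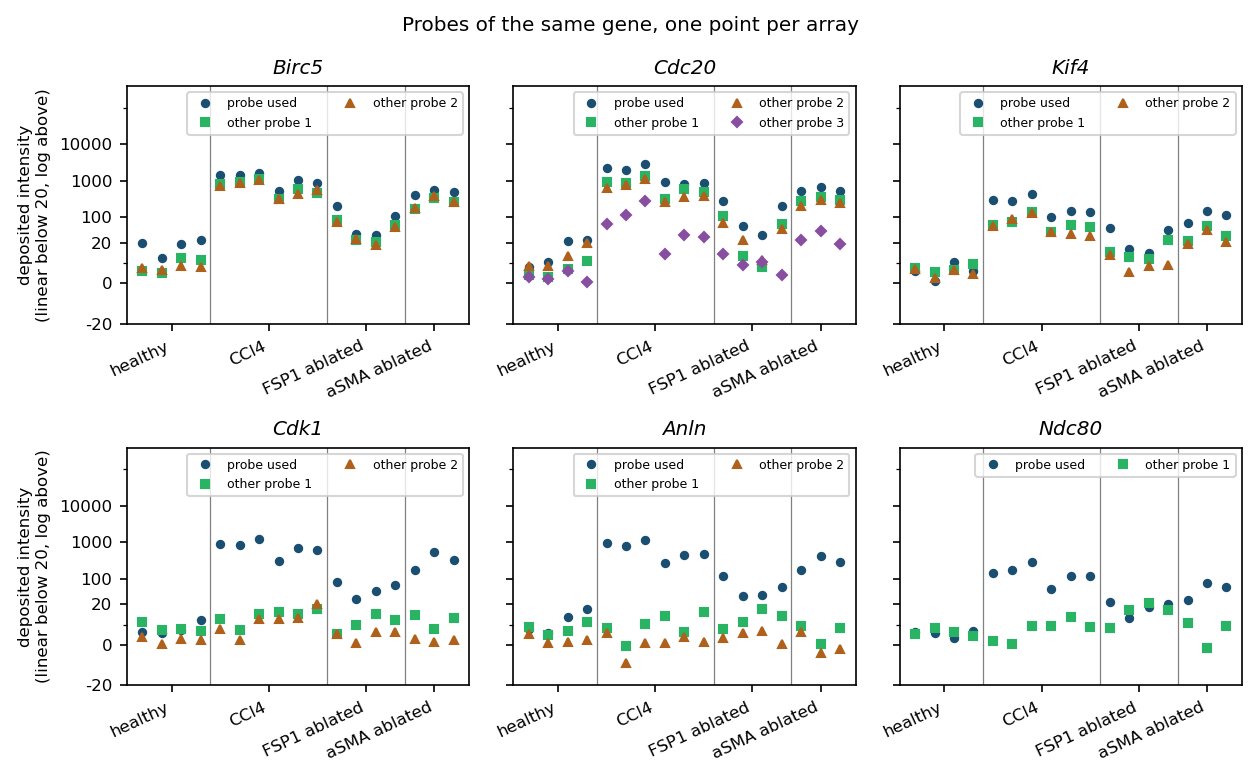
Deposited intensity on each array for every probe of 6 genes, on an axis that is linear below 20 and logarithmic above. In the upper row (Birc5, Cdc20, Kif4) the other probes follow the probe used, and in the lower row (Cdk1, Anln, Ndc80) they stay near background on all arrays.

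The wider machinery was read from 3 further lists. Of 49 further mitosis genes tested, 43 were higher in CCl4 than in healthy liver (16.5% of all features) and 42 were lower after FSP1 ablation (7.38% of all features), with medians of 0.95 and -0.91. After aSMA ablation 0 of the 49 were called against CCl4 liver by limma (38 had an unadjusted p under 0.05, as did 11.2% of all features), and 11 were lower in FSP1 ablated than in aSMA ablated liver (2.71% of all features). Kif15, a spindle kinesin, rose by 1.28 (adjusted p = 4.85e-07) with CCl4 and differed by -1.22 (adjusted p = 2.89e-06) after FSP1 ablation. Incenp, the scaffold of the chromosomal passengers, differed by 2.01 (adjusted p = 7.75e-07) and -1.72 (adjusted p = 1.17e-05). Mad1l1, the checkpoint partner of MAD2, differed by 0.026 (adjusted p = 0.923) with CCl4 and Bub3 by -0.060 (adjusted p = 0.772).

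The core of the anaphase-promoting complex, which Cdc20 activates, was read in the same way. Of 12 of its genes tested, Fzr1 included, 1 was higher (Anapc4, 0.48 (adjusted p = 0.00211)) and 1 lower (Anapc7, -0.41 (adjusted p = 0.00961)) in CCl4 liver, beside 16.5% and 17.5% of all features, with a median of 0.10. The difference from the mitosis and spindle genes was not tested. Anapc13, a small subunit, differed by 0.014 (adjusted p = 0.927) and Fzr1 (CDH1), the activator that follows CDC20, by 0.027 (adjusted p = 0.833).

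Of 17 genes of the G1 phase, 9 were higher in CCl4 liver (16.5% of all features), 6 were lower after FSP1 ablation (7.38%) and 4 were higher in FSP1 ablated than in healthy liver (9.01%). Ccnd1 (cyclin D1), which takes resting cells into G1, rose by 3.31 (adjusted p = 9.76e-06) with CCl4 and stayed above healthy liver after FSP1 ablation by 2.16 (adjusted p = 0.00231). Cdkn1a (p21), an inhibitor of cyclin-dependent kinases, rose by 3.06 (adjusted p = 0.000144) and was 2.71 (adjusted p = 0.00234) above healthy liver after FSP1 ablation. Cdkn2c (p18) rose by 1.36 (adjusted p = 2.24e-05), and was 1.06 (adjusted p = 0.00143) above healthy liver after the ablation. Rbl1 (p107), a pocket protein, rose by 1.17 (adjusted p = 8.32e-06) and was 0.51 (adjusted p = 0.0188) above. These 4 are the called ones, and the other 13 of the 17 were not called between FSP1 ablated and healthy liver. The median difference of the 17 was 0.031 there, beside 0.35 for the 31 mitosis and spindle genes, none of which was called. The difference between the lists was not tested.

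Markers of other cells were read beside these results. The 9 stellate cell and myofibroblast markers summed to normalized intensities of 666 to 1012 on the healthy arrays, 2283 to 4392 with CCl4, 742 to 1057 after FSP1 ablation and 1087 to 2407 after aSMA ablation, the same order of groups as most mitosis genes. Of these 9 markers 6 were called higher and 1 lower in CCl4 liver, beside 16.5% and 17.5% of all features. After FSP1 ablation 5 were called lower and 0 higher, beside 7.38% and 5.55% of all features. After aSMA ablation 0 of the 9 were called against CCl4 liver, beside 0.00778% of all features called lower and 0% higher. The sign was negative for 7 of the 9 and positive for 2. By limma 5 had an unadjusted p under 0.05, as did 11.2% of all features, so the markers are not shown to be unchanged. None of the 9 was below background on all CCl4 arrays, and 2 were so on the healthy ones. The 4 monocyte and macrophage markers tested summed to 2099 to 3857, 5105 to 11230, 6010 to 8265 and 7534 to 9440 in the same order of groups. After FSP1 ablation 1 of the 4, Clec4f, was called higher than in CCl4 liver (0.47, adjusted p = 0.0133) and none lower. The shares over all features were 5.55% and 7.38%, and Clec4f is named after its value was seen. Neutrophil markers summed to 622 to 1286 on healthy, 1101 to 3901 on CCl4 and 2670 to 5528 on FSP1 ablated arrays. Erythroid markers were highest in healthy liver, at 12810 to 16490, and 382 to 5263 after FSP1 ablation. With CCl4, 0 of 6 T and NK cell markers and 0 of 3 B cell markers were called in either direction. Of 7 endothelial markers 1 was called higher and 1 lower, and of 2 cholangiocyte markers 1 was called higher. The shares of all features there were 16.5% higher and 17.5% lower. With so few markers tested, these counts do not show that the cells were unchanged. The part of these cells in the levels of the mitosis genes was not tested.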

How the data were processed

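Total RNA of mouse liver was extracted with Trizol and labelled with biotin for Illumina arrays, per the labels' protocols. The authors deposited intensity values read with GenomeStudio, per the submitters' processing notes. Which version, background correction and normalization were used is not stated there. A separate table with 34 columns whose names match no sample was not used.

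From the deposited intensities, a background was estimated per array, centred on the mode and with the SD of values under that mode. Values were corrected with limma's normexp (offset 50), quantile normalized and put on the log2 scale. Probes above the 95th percentile of background on at least 3 arrays were kept (17450 of 25697), with 1 probe per gene. The 12853 features comprise 11782 with a symbol and 1071 without. A single model of group, fitted with limma 3.58.1 (R 4.3.3; lmFit, eBayes) to the 17 arrays, gave 6 comparisons, two-sided, with Benjamini-Hochberg adjustment over all features and a threshold of 0.05. The fit was tested on simulated data. Motifs were searched with Python 3.11.15.

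Groups and replicate numbers come from the sample titles. No 2 arrays held the same values. Same-numbered arrays were not shown to be paired. Any member may be named. Outside the list, the 10 genes most like the members' mean, S100a4, Acta2 and, from each further list, the called genes with the 4 smallest p and the genes with the 2 largest p may be named. The members and lists were chosen with earlier results of these data known. The alternatives tried were no background correction, the deposited scale, median centring, offset 16, a filter at the 99th percentile or none, all probes separately, trended and robust variances, array weights, a block for replicate number or for Y-linked signal, fits of the compared groups alone, parts of the CCl4 arrays, and leaving out each array.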

Additional observations from a re-analysis of the deposited data

Results flagged for a closer look

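In 4 of 93 sets of a gene and a group, 1 array stood far from the others by Dixon's test, which chance does in about 1 in 20. Melk on FSP1 ablated array 4 read 5.81, with the group's other arrays from 5.73 to 5.74. Ttk on Healthy array 3 read 5.95, with the group's other arrays from 5.72 to 5.76. Ttk on FSP1 ablated array 3 read 5.89, with the group's other arrays from 5.72 to 5.73. Kif2c on Healthy array 4 read 5.91, with the group's other arrays from 5.69 to 5.71. All 4 are levels near background.

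The effect of FSP1 ablation differed from that of aSMA ablation for 16 of the 31 genes, as the limma contrast of the 2 ablated groups shows, given here as the log2 difference of FSP1 ablated minus aSMA ablated. The genes were Cdk1 (-1.76, adjusted p = 0.0135), Foxm1 (-0.72, adjusted p = 0.0354), Aurka (-1.27, adjusted p = 0.0379), Plk1 (-1.62, adjusted p = 0.0378), Pbk (-2.01, adjusted p = 0.00609), Birc5 (-2.0, adjusted p = 0.0106), Kif11 (-0.82, adjusted p = 0.0159), Kif22 (-1.39, adjusted p = 0.00989). The others were Kif2c (-1.32, adjusted p = 0.0305), Nusap1 (-1.89, adjusted p = 0.00795), Prc1 (-2.38, adjusted p = 0.0211), Anln (-1.59, adjusted p = 0.034), Cdc20 (-1.88, adjusted p = 0.0445), Cdca3 (-1.71, adjusted p = 0.0273), Top2a (-1.52, adjusted p = 0.039) and Ncaph (-1.04, adjusted p = 0.0283). The number was 1 without aSMA ablated array 2, and 5 to 15 when any other array of these groups was left out.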

How the results depend on the processing

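The counts of 29 genes higher in CCl4 liver and 28 lower after FSP1 ablation stayed within 1.5 times under every alternative run. They were 28 to 29 and 26 to 29 with 1 array left out. The lowest for CCl4 against healthy was 23, with the Y-linked block, where 10.5% of all features were called higher. The lowest for FSP1 ablated against CCl4 was 25, with only the groups compared, where 5.77% of all features were called lower. The count for aSMA ablated against CCl4 liver, 0 as reported, was 28 with array weights, 28 against CCl4 arrays 1 to 3, 4 with the Y-linked block, and 0 to 10 with 1 array left out (10 without CCl4 array 4). FSP1 against aSMA ablated, 16 as reported, gave 9 of 39 members tested with no filter, 5 with the replicate block and 1 to 15 with 1 array left out. With the replicate block, 2.85% of all features were called lower. FSP1 ablated against healthy, 0 as reported, gave 4 without background correction, 9 on the deposited scale, 5 with median centring, 2 with offset 16, 3 with array weights, 2 with only the groups compared, and 0 to 1 with 1 array left out. Of all features, 9.01% were called higher as reported. The share was 9.48% without background correction, 64.9% on the deposited scale and 49.5% with median centring. It was 9.66% with offset 16, 15.6% with array weights and 7.8% with only the groups compared. aSMA ablated against healthy, 21 as reported, gave 6 with the Y-linked block and 16 to 22 with 1 array left out. Over all features, CCl4 against healthy gave 2126 higher and 2246 lower as reported, 8974 and 70 on the deposited scale and 6561 and 1230 with median centring, where the median of all features shifted by 0.57 and 0.37. FSP1 ablated against healthy moved from 1158 and 1140 to 8339 and 72, and to 6364 and 553. aSMA ablated against healthy moved from 1438 and 1467 to 8498 and 53, and to 6522 and 856. Array weights moved aSMA ablated against CCl4 from 0 and 1 to 708 and 936. Same-numbered arrays deviated from their group means with r from -0.30 to 0.38 over features, so the numbers are not shown to pair the arrays. With 31 genes, 6 comparisons and the alternatives, 3999 single-gene differences were computed beside the main ones. Of these, 66 had the other sign, 46 of them in FSP1 ablated against healthy liver, and none belonged to a difference called as reported. A single one was called under its alternative, Foxm1 in FSP1 ablated against healthy liver on the deposited scale (0.45, adjusted p = 0.0397). A call was lost in 141 cases and gained in 142, and the cause was not tested. In FSP1 ablated against healthy the log2 differences of the other sign were Cks2 0.15, Aurka -0.33, Plk1 -0.20, Melk -0.086, Cdca8 -0.73, Bub1b -0.092, Cenpa -0.31, Ndc80 -0.020, Kif2c -0.37, Kif4 -0.28, Tpx2 -0.40, Anln -0.027, Cep55 -0.25, Cdc20 -0.24, Ube2c -0.12, Pttg1 -0.46, Cdca3 -0.093, Top2a -0.44 with Y-linked signal as a block; Foxm1 0.053, Melk -0.0025 with array weights; Foxm1 0.27, Melk -0.12, Kif11 -0.0069, Kif22 0.25, Tpx2 -0.059, Cep55 -0.10, Ube2c -0.10, Pttg1 -0.13 with arrays centred on their median; Ccna2 0.035, Cks2 0.024, Foxm1 0.45, Ttk 0.043, Kif22 0.43 on the deposited scale; Ccna2 0.11 without background correction; Ccna2 -0.0068 to 0.0082, Foxm1 -0.074 to 0.078, Melk -0.012 to 0.015, Ttk -0.067 to 0.026, Pttg1 -0.011 to 0.020 with 1 array left out. In aSMA ablated against healthy the log2 differences of the other sign were Melk -0.036, Cdca8 -0.35, Ttk -0.12, Ube2c -0.013, Pttg1 -0.27 with Y-linked signal as a block; Ttk -0.015 with array weights; Ccna2 -0.15, Cks2 -0.060, Melk -0.082, Ttk -0.10 with arrays centred on their median; Ttk -0.014 with the replicate block; Ttk -0.0076 to 0.068 with 1 array left out. In CCl4 against healthy the log2 differences of the other sign were Cks2 -0.034 with CCl4 arrays 1 to 3 only; Cks2 -0.10 with arrays centred on their median; Cks2 -0.011 with the replicate block. In FSP1 ablated against CCl4 the log2 differences of the other sign were Cks2 0.0004 with CCl4 arrays 1 to 3 only. In aSMA ablated against CCl4 the log2 differences of the other sign were Cks2 -0.057 with CCl4 arrays 4 to 6 only; Cks2 -0.016 to 0.072 with 1 array left out. In FSP1 against aSMA ablated the log2 differences of the other sign were Ccna2 0.0038 with arrays centred on their median.

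With 3 to 6 arrays a group, small differences cannot be seen, and the probes used for 11 of the 31 genes gave no signal above background in healthy liver, so that their levels there are bounds. Cdk1, Kif2c, Kif4, Ncaph, Bub1b and Ttk were above background on only 1 healthy array each. The members' median difference in CCl4 against healthy liver was 2.30 as reported and 3.96 without background correction, so the sizes of the rises depend on the processing.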

Other observations

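Chosen after their values were seen, a pair of genes from the further lists departed from their lists after FSP1 ablation. Spc24, a subunit of the NDC80 kinetochore complex, differed from healthy liver by -1.02 (adjusted p = 0.00759) in FSP1 ablated liver and by -0.19 (adjusted p = 0.522) in CCl4 liver. Anapc16, a small subunit of the anaphase-promoting complex, differed from CCl4 liver by 0.94 (adjusted p = 0.00123) and from healthy liver by 1.04 (adjusted p = 0.00153) after FSP1 ablation.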
